A study of Homo sapiens with 6 samples.

Results

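Cyclin-dependent kinases and the activators of CDK5 were represented by 80 guide RNAs (gRNAs) against 20 genes, out of 77441 gRNAs against 19364 genes in a genome-wide CRISPR/Cas9 screen of IMR32 cells. The members were all gRNAs whose target is named CDK followed by digits only, plus those against CDK5R1 and CDK5R2, with 4 gRNAs per gene in the files of both donors. CDK8 is not analysed here. IMR32 is a human neuroblastoma line with amplified MYCN, and since no expression was measured it was not checked against markers. All cells carried Cas9 and the Brunello gRNA library, and there were 3 conditions with 2 libraries each. IMR32 cells were cultured alone as controls, or together with human lymphocytes depleted of CD14+ cells, or together with such lymphocytes and nivolumab, a PD-1 blocking antibody, at 10 µg/ml. Adherent cancer cells were taken on day 5 by the labels, and gRNAs were amplified from their genomic DNA. Replicate 1 stands for the screen with lymphocyte donor 1 and replicate 2 for that with donor 2. The paper describes the screens as run at a high and a low ratio of lymphocytes to cancer cells. In the libraries with lymphocytes, donor, ratio and transduction therefore cannot be told apart. IMR32 alone held no lymphocytes, so its 2 libraries differ in neither donor nor ratio.

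Cyclin-dependent kinases are serine/threonine kinases that need a partner protein, usually a cyclin, to become active. Some drive the cell cycle: CDK4 and CDK6 with D-type cyclins in G1, CDK2 with cyclins E and A at the start and during S phase, and CDK1 with cyclins A and B in mitosis. Others phosphorylate RNA polymerase II or its regulators, such as CDK7 in the general factor TFIIH, CDK9 in P-TEFb, and CDK12 and CDK13 with cyclin K. CDK5 is best known from neurons and is switched on by p35 and p39, the products of CDK5R1 and CDK5R2, instead of a cyclin. In a pooled screen, a gRNA whose target is needed for growth becomes rarer, so the reads of a gRNA track how many cells carrying it were left.

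The deposited values are normalized reads with the same total in every library. In each of the 6 libraries every value was a whole multiple of a step, to within 1.82e-12 of the step. Counting 1 read per step gave 58554842 to 79924251 reads per library and 713 to 987 reads for the median gRNA. Among the 80 gRNAs the fewest reads in any library were 43, for CDK9_4. Counting error on the log2 ratio of a member gRNA between a pair of libraries had a median of 0.079 and a range of 0.045 to 0.296. These errors cover counting only, since it is not stated whether reads sharing a molecular identifier were collapsed. Olfactory receptor genes served as neutral targets, with 1496 gRNAs against 374 genes and a median of 984 to 995 normalized reads per library. The gRNA names carry the gene and a number, and the sequences were not used here.

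Levels were first compared with olfactory receptors. The gene score is the median over the gRNAs of log2(normalized reads + 1), minus the median of the olfactory receptor gRNAs in the same library, so that 0 means the level of a typical neutral gRNA. The data hold no plasmid pool or early time point, so a low score mixes loss of knockout cells with how well the gRNA was represented at the start, and the part of each was not tested. Averaged over both libraries of IMR32 alone, 15 of the 20 genes scored below the olfactory receptor median, where 69.7% of all genes did, and the same number scored below the median of all genes. The median of the 20 genes was 66.7% of the olfactory receptor level, against 86.2% for all 19364 genes.

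Class medians in IMR32 alone ran from the cell cycle kinases at the bottom to the PCTAIRE and PFTAIRE kinases at the top. The 5 cell cycle kinases had a median score of -1.04, which is 48.5% of the olfactory receptor level. The 5 transcriptional kinases had -0.74 (59.8%). CDK5 with its activators had -0.40 (75.6%), CDK10 and CDK20 had -0.24 (85.0%), and the 5 PCTAIRE and PFTAIRE kinases, CDK14 to CDK18, had 0.06 (105%). These are descriptions of 2 to 5 genes per class, with no test between classes. The order cell cycle, transcriptional, CDK5, PCTAIRE and PFTAIRE was the same in each of the 6 libraries. Scores overlapped between classes, and the transcriptional kinases alone ran from -1.88 for CDK9 to 0.16 for CDK19.

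A gene was called low when its score lay below the 2.5th percentile of the olfactory receptor genes in both libraries of IMR32 alone. That limit was -1.02 in replicate 1 and -1.10 in replicate 2. CDK9, CDK1 and CDK2 were low, 3 of the 20 genes, where 5.21% of all genes were. The same 3 were also below the limit in all 4 libraries with lymphocytes, where 4.18% of all genes were below it in all 6 libraries. The first is the catalytic subunit of the elongation kinase P-TEFb, and the other two are the kinases of mitosis and of S phase. In mean score over IMR32 alone CDK9 ranked 101 from the lowest of all genes, CDK1 ranked 330 and CDK2 ranked 635.

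CDK9 (chromosome 9, 127785679 to 127790792, in GRCh38 as are all positions here) scored -1.63 and -2.12 in IMR32 alone, in replicates 1 and 2. It scored -1.72 and -1.75 in coculture and -1.68 and -1.85 with nivolumab. All 6 libraries lay below the limit, and the lowest value was in IMR32 alone. CDK9_4 had 73 and 54 normalized reads in IMR32 alone, 49 and 51 in coculture, and 66 and 73 with nivolumab. CDK9_1 had 243 and 233 normalized reads in IMR32 alone, 249 and 241 in coculture, and 256 and 229 with nivolumab. CDK9_2 had 418 and 218 normalized reads in IMR32 alone, 364 and 352 in coculture, and 372 and 323 with nivolumab. CDK9_4 lay between the 0.201 and 0.267 percentiles of the olfactory receptor gRNAs in every library, and CDK9_2 was below the limit for gRNAs in IMR32 alone of replicate 2 only. CDK9_3 had 734 and 577 normalized reads in IMR32 alone, 578 and 453 in coculture, and 494 and 515 with nivolumab. The highest and the lowest gRNA of CDK9 were 3.35 apart on the log2 scale in IMR32 alone, so the gene score is the middle of widely spaced gRNAs.

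CDK1 (chromosome 10, 60778331 to 60794852) scored -1.62 and -1.45 in IMR32 alone, -1.53 and -1.52 in coculture, and -1.48 and -1.40 with nivolumab. Over the 6 libraries the SD was 0.08, and of the 20 genes CDK14 and CDK15 had a smaller one. CDK1_2 had 199 and 236 normalized reads in IMR32 alone, 238 and 251 in coculture, and 228 and 289 with nivolumab. CDK1_3 had 277 and 346 normalized reads in IMR32 alone, 334 and 322 in coculture, and 343 and 318 with nivolumab. CDK1_4 had 374 and 376 normalized reads in IMR32 alone, 354 and 366 in coculture, and 365 and 441 with nivolumab. These gRNAs were well below the olfactory receptor median in every library. CDK1_1 had 821 and 708 normalized reads in IMR32 alone, 803 and 901 in coculture, and 827 and 712 with nivolumab. That gRNA stood apart from the other 3 in all libraries and was close to the median gRNA of the whole pool.

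CDK2 (chromosome 12, 55966781 to 55972789) scored -1.35 and -1.27 in IMR32 alone, -1.22 and -1.56 in coculture, and -1.44 and -1.23 with nivolumab. CDK2_3 had 256 and 290 normalized reads in IMR32 alone, 239 and 262 in coculture, and 237 and 301 with nivolumab. CDK2_4 had 354 and 283 normalized reads in IMR32 alone, 342 and 255 in coculture, and 260 and 351 with nivolumab. CDK2_1 had 424 and 676 normalized reads in IMR32 alone, 530 and 421 in coculture, and 508 and 500 with nivolumab. The libraries of the conditions overlapped for each of these gRNAs. CDK2_2 had 456 and 572 normalized reads in IMR32 alone, 598 and 722 in coculture, and 621 and 507 with nivolumab. For CDK2_2 both coculture libraries were above both of IMR32 alone, as they were for 12.8% of all gRNAs. All 4 gRNAs of CDK2 were below the olfactory receptor median in every library, with a spread of 0.97 on the log2 scale in IMR32 alone.

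CDK3, a kinase related to CDK2 (chromosome 17, 76000855 to 76005999), scored just above the limit in IMR32 alone in replicate 2 and below it in replicate 1, with -1.02 and -1.07. In coculture it was below the limit in both replicates, at -1.24 and -1.22. With nivolumab it was at -1.27 and -1.02. CDK3_1 had 508 and 373 normalized reads in IMR32 alone, 392 and 347 in coculture, and 441 and 461 with nivolumab. CDK3_2 had 436 and 463 normalized reads in IMR32 alone, 353 and 515 in coculture, and 380 and 477 with nivolumab. CDK3_3 had 402 and 509 normalized reads in IMR32 alone, 454 and 258 in coculture, and 369 and 492 with nivolumab. The last of these had its lowest value in coculture replicate 2 and was about as abundant in the other library of that condition as elsewhere. CDK3_4 had 747 and 781 normalized reads in IMR32 alone, 770 and 606 in coculture, and 736 and 676 with nivolumab.

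The kinases of G1 stood higher. CDK4 (chromosome 12, 57747727 to 57756013) scored -0.70 and -0.90 in IMR32 alone, -0.58 and -0.60 in coculture, and -0.50 and -0.82 with nivolumab. CDK6 (chromosome 7, 92604921 to 92836573) scored -0.54 and -0.96 in IMR32 alone, -0.76 and -0.89 in coculture, and -0.68 and -0.86 with nivolumab. Neither gene reached the limit in any library, and their mean scores in IMR32 alone, -0.80 and -0.75, differed by less than the spread of either between libraries. CDK4_3 had 213 and 274 normalized reads in IMR32 alone, 215 and 324 in coculture, and 175 and 281 with nivolumab. CDK4_1 had 432 and 438 normalized reads in IMR32 alone, 535 and 500 in coculture, and 492 and 383 with nivolumab. CDK4_2 had 860 and 638 normalized reads in IMR32 alone, 825 and 845 in coculture, and 990 and 811 with nivolumab. The gRNAs of CDK4 lay on both sides of the neutral level. CDK4_4 had 1104 and 1320 normalized reads in IMR32 alone, 1173 and 1547 in coculture, and 1253 and 1285 with nivolumab.

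Among the other transcriptional kinases, CDK7, which also activates the cell cycle kinases, scored -0.79 and -1.03 in IMR32 alone and passed the limit in coculture replicate 2 only. CDK13 scored -0.79 and -0.69, and passed it only with nivolumab in replicate 1. Neither was low in IMR32 alone. CDK12, the close relative of CDK13, scored -0.36 and -0.43. CDK19, a kinase of the Mediator module, was above the neutral level in all 6 libraries, from 0.13 to 0.35. Its gRNAs ranged from 307 normalized reads to 1931.

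CDK16 had the highest score of the 20 genes, between 0.38 and 0.62 in the 6 libraries. CDK14 scored 0.05 to 0.23 and CDK15 scored -0.12 to 0.07, so these neighbours in the order lay around the neutral level. The remaining kinases of that family were lower. CDK17 scored -0.52 to -0.31 and CDK18 scored -0.67 to -0.36. Outside the named classes, CDK10 scored between -0.19 and 0.45, and CDK20, a kinase linked to cilia, between -0.73 and -0.44. In the order of mean score in IMR32 alone, CDK4, CDK6, CDK5R1 and CDK13 spanned only -0.80 to -0.74, which is less than the SD of each over the 6 libraries (0.13 to 0.22), and the same holds for CDK5R2, CDK12 and CDK5 (-0.40 to -0.39, SD 0.11 to 0.20).

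Single gRNAs were judged against olfactory receptor gRNAs in the same way. In both libraries of IMR32 alone 6 of the 80 gRNAs were below the 2.5th percentile, where 4.31% of all gRNAs were. They were CDK9_1, CDK9_4, CDK1_2, CDK4_3, CDK6_4 and CDK20_1. CDK9_1, CDK9_4, CDK1_2 and CDK6_4 were below it in all 6 libraries, where 3.32% of all gRNAs were. For CDK4, CDK6 and CDK20 this was 1 gRNA of 4, with the gene score above the limit. CDK20_1 had 162 to 352 normalized reads while CDK20_3 had 1224 to 1428.

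CDK5 and its activators were next compared across conditions, as the kinase and the proteins that switch it on in place of a cyclin. CDK5 (chromosome 7, 151053815 to 151057897) scored -0.59 and -0.20 in IMR32 alone, -0.73 and -0.40 in coculture, and -0.69 and -0.44 with nivolumab. Replicate 2 was higher than replicate 1 in each condition. CDK5_1 had 813 and 955 normalized reads in IMR32 alone, 1004 and 806 in coculture, and 835 and 953 with nivolumab. CDK5_2 had 509 and 633 normalized reads in IMR32 alone, 477 and 432 in coculture, and 450 and 599 with nivolumab. CDK5_3 had 549 and 829 normalized reads in IMR32 alone, 581 and 733 in coculture, and 544 and 612 with nivolumab. In none of these gRNAs did a condition stand apart from both others. CDK5_4 had 786 and 890 normalized reads in IMR32 alone, 619 and 755 in coculture, and 689 and 866 with nivolumab.

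CDK5R1 (chromosome 17, 32486993 to 32491253), which encodes p35, scored -0.89 and -0.61 in IMR32 alone, -0.74 and -0.31 in coculture, and -0.84 and -0.81 with nivolumab. CDK5R1_1 had 957 and 1010 normalized reads in IMR32 alone, 878 and 1041 in coculture, and 845 and 786 with nivolumab. CDK5R1_2 had 481 and 689 normalized reads in IMR32 alone, 589 and 767 in coculture, and 564 and 496 with nivolumab. CDK5R1_3 had 590 and 599 normalized reads in IMR32 alone, 601 and 585 in coculture, and 527 and 568 with nivolumab. For each of these gRNAs both libraries with nivolumab were below both coculture libraries, as they were for 12.8% of all gRNAs. The lowest of the replicate 2 libraries was that with nivolumab for each, and for CDK5R1_3 the replicate 2 libraries were close. CDK5R1_4 had 467 and 607 normalized reads in IMR32 alone, 420 and 824 in coculture, and 539 and 555 with nivolumab. In replicate 1 this gRNA was higher with nivolumab than in coculture, and in replicate 2 it was lower.

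CDK5R2 (chromosome 2, 218959666 to 218962155), which encodes p39, scored -0.30 and -0.51 in IMR32 alone, -0.31 and -0.52 in coculture, and -0.54 and -0.39 with nivolumab. CDK5R2_1 had 1509 and 1583 normalized reads in IMR32 alone, 1368 and 1571 in coculture, and 1549 and 1636 with nivolumab. CDK5R2_2 had 731 and 609 normalized reads in IMR32 alone, 748 and 633 in coculture, and 646 and 635 with nivolumab. CDK5R2_3 had 887 and 787 normalized reads in IMR32 alone, 859 and 739 in coculture, and 717 and 895 with nivolumab. Only CDK5R2_1 of these 3 was higher with nivolumab than in coculture in both replicates, and there the libraries of the conditions overlapped. CDK5R2_4 had 442 and 445 normalized reads in IMR32 alone, 297 and 395 in coculture, and 474 and 513 with nivolumab. Here both libraries with nivolumab were above both coculture libraries. Over the pool, 12.6% of all gRNAs had both libraries with nivolumab above both coculture libraries and 12.8% had both below, and among the 80 member gRNAs 10 were above and 11 below.

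The effect of nivolumab on top of lymphocytes was scored per donor, as the median over gRNAs of the log2 ratio of the library with nivolumab to the coculture library. A gene was past the cut-off when it lay below the mean minus 2 SD of all gene scores of that donor, or above the mean plus 2 SD. In donor 1 the cut-offs were -0.22 and 0.22, and 0 of the 20 genes were past either, where 4.89% of all genes were. The members ranged from -0.11 for CDK18 to 0.13 for CDK12. In donor 2 the cut-offs were -0.24 and 0.24, and 4 of the 20 genes were past either, where 4.96% of all genes were. CDK5R1, CDK12 and CDK4 were below, where 2.52% of all genes were, and CDK3 was above, where 2.44% were. No member was below in both donors, where 0.134% of all genes were, or above in both, where 0.062% were.

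CDK5R1 had -0.49 in donor 2 and ranked 8 from the lowest of all genes there. Its gRNAs had -0.41, -0.63, -0.04 and -0.57, in order of their numbers. The coculture library of donor 2 had the highest level score of CDK5R1 in the 6 libraries, -0.31. With nivolumab in donor 2 the level was -0.81, between those of IMR32 alone in replicates 1 (-0.89) and 2 (-0.61). CDK5R1_1, CDK5R1_2 and CDK5R1_4 also had their most reads in that coculture library, while CDK5R1_3 did not. In donor 1 CDK5R1 had -0.06, with -0.06, -0.06, -0.19 and 0.36. Only the value of donor 2 was past a cut-off, and CDK5R1_4 had opposite signs in the donors. For scale, the SD over olfactory receptor gRNAs was 0.20 in donor 1 and 0.22 in donor 2.

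CDK12 had -0.24 in donor 2 and 0.13 in donor 1, and CDK4 had -0.24 and -0.01. For CDK3 the score was 0.28 in donor 2 and 0.02 in donor 1. In donor 2 CDK3_3 had 0.93, from a coculture library where that gRNA was low. CDK3_1 and CDK3_4 also had positive ratios in donor 2, while CDK3_2 had -0.11.

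CDK12 lies on chromosome 17, at 39461486 to 39567559. CDK12_1 had 1174 and 1039 normalized reads in IMR32 alone, 933 and 1130 in coculture, and 1102 and 1141 with nivolumab. CDK12_2 had 604 and 708 normalized reads in IMR32 alone, 588 and 704 in coculture, and 776 and 507 with nivolumab. CDK12_3 had 984 and 635 normalized reads in IMR32 alone, 869 and 748 in coculture, and 882 and 683 with nivolumab. CDK12_2 had a ratio of nivolumab to coculture of 0.40 in donor 1 and -0.47 in donor 2. CDK12_4 had 444 and 759 normalized reads in IMR32 alone, 567 and 868 in coculture, and 439 and 677 with nivolumab. Its ratio was below 0 in each donor, at -0.37 and -0.36. For CDK4 all 4 gRNAs were below 0 in donor 2, from -0.38 to -0.06, and 2 of 4 in donor 1.

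CDK5 had -0.09 in donor 1 and 0.22 in donor 2, and CDK5R2 had -0.02 and 0.17. Thus in donor 2, where CDK5R1 had its lower ratio, the kinase it activates and the other activator had positive scores within the cut-offs. The low genes were close to 0 for CDK9 (0.04 and 0.05) and CDK1 (0.04 and 0.09), while CDK2 had -0.04 and 0.22. The SD over the 20 gene scores was 0.070 in donor 1 and 0.195 in donor 2, where that over olfactory receptor genes was 0.097 and 0.112. Across the 80 gRNAs, the ratios of the donors had a Pearson r of -0.040 and a Spearman rho of 0.018, given as a description of gRNAs that share libraries and targets. In all, 10 of the 20 genes were below 0 in each donor, as were 50.2% and 50.3% of all genes.

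A limma model was fitted on the scores of all 19364 genes with the replicate number as a block. For nivolumab against coculture it called 0 of the 20 members at an adjusted p under 0.05, where 0% of all genes were called. At an unadjusted p under 0.05 there was 1 of the 20, where 4.51% of all genes were. That gene was CDK5R1, with a log2 change of -0.30 (standard error 0.10, 95% interval -0.51 to -0.10, unadjusted p = 0.00660, adjusted p = 0.999 from limma). Without coculture replicate 2 or nivolumab replicate 2 the change was -0.17 or -0.14, and without the same libraries of replicate 1 it was -0.44 or -0.47. CDK5R1 was known from earlier results of these data when the members were chosen, so this is no independent support. For CDK5 the change was 0.00 with an interval from -0.19 to 0.19, and for CDK5R2 it was -0.05 (-0.26 to 0.16), so changes of that size could not be told from 0. The same fit per gRNA called 0 of the 80, where 0% of all gRNAs were called, and 5 had an unadjusted p under 0.05, where 4.43% of all gRNAs did. CDK5R2_4 (0.52), CDK9_4 (0.47), CDK14_3 (0.36) and CDK13_1 (0.34) had positive log2 values and CDK12_4 had -0.36, each from a different gene. These p-values measure only the spread between libraries, which limma takes in part from all genes or gRNAs together. With 6 libraries, the 18.1 degrees of freedom for genes and 7.9 for gRNAs came mostly from that shared part. With 2 libraries against 2, an exact permutation test of a single gene that ignores the donor cannot go below p = 0.333. Permuting within donors allows fewer arrangements, so its floor is higher.

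Lymphocytes without nivolumab were compared with IMR32 alone in the same way. In donor 1 CDK9 and CDK6 were below the cut-off, at -0.27 and -0.25, 2 of the 20 genes where 2.51% of all genes were. In donor 2 CDK13 was below it, at -0.26, where 2.44% of all genes were. No member was below in both donors (0.0826% of all genes) or above in both (0.124%). CDK9 had -0.02 and CDK6 had 0.01 in donor 2, and CDK13 had 0.03 in donor 1. No member was above the upper cut-off in either donor, where 2.22% and 2.36% of all genes were. CDK6_1 and CDK6_2 had -0.38 and -0.27 in donor 1, and 0.10 and -0.01 in donor 2.

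For lymphocytes against IMR32 alone the limma fit called 0 members (0% of all genes), and 3 had an unadjusted p under 0.05, where 4.97% of all genes did. They were CDK13, with a log2 change of -0.25 (standard error 0.09, adjusted p = 0.918 from limma), CDK5R1 with 0.23 (standard error 0.10) and CDK4 with 0.21 (standard error 0.09). The median log2 ratios of CDK5R1 were -0.05 in donor 1 and 0.10 in donor 2, so their sign was not shared. For CDK9 the fitted change was 0.14 (interval -0.07 to 0.36), opposite in sign to its median log2 ratios. The fit takes the median over gRNAs in each library first, and CDK9_1 and CDK9_2 were at the middle in all 6 libraries. The middle ratios were instead those of CDK9_2 and CDK9_3 in donor 1 and of CDK9_1 and CDK9_4 in donor 2. CDK9_2 had 0.68 in donor 2 and CDK9_3 had -0.35. Per gRNA, limma called 0 of the 80 (0.00129% of all gRNAs), and 3 had an unadjusted p under 0.05 (4.62%), namely CDK5R2_4 (-0.37), CDK9_3 (-0.34) and CDK5_4 (-0.29). CDK5R2_4 thus had its low libraries in coculture, with IMR32 alone and nivolumab both higher. Both coculture libraries were below both of IMR32 alone for 8 of the 80 gRNAs (12.6%) and above for 10 (12.8%).

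With nivolumab against IMR32 alone, CDK6 was below the cut-off in donor 1, at -0.23, where 2.64% of all genes were. CDK5R1 and CDK15 were below it in donor 2, both at -0.25, where 2.34% of all genes were. All 4 gRNAs of CDK5R1 were below 0 in donor 2, from -0.47 to -0.08, and 2 of 4 in donor 1, where its score was 0.02. No member was below in both donors, where 0.0878% of all genes were, or above in either, where 2.22% and 2.36% were (0.0981% in both). The limma fit called 0 members (0% of all genes), and 1, CDK13, had an unadjusted p under 0.05, where 5.17% of all genes did. Per gRNA it called 0 of the 80 (0.00129% of all gRNAs), with 3 at an unadjusted p under 0.05 (4.86%), namely CDK6_4 (-0.39), CDK9_3 (-0.37) and CDK19_4 (0.27). Both libraries with nivolumab were below both of IMR32 alone for 10 of the 80 gRNAs (12.7%) and above for 5 (12.8%). The comparisons share libraries, so that a value in a single coculture library enters the first and second of them with opposite signs.

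Replicate numbers were compared as well, after the values had been seen. For 26 of the 80 gRNAs all 3 libraries of a replicate number lay on the same side of all 3 of the other, where 27.7% of all gRNAs did. The 3 libraries of a replicate number come from the same screen. The p-values between replicates, for genes and for gRNAs, thus measure the spread between libraries of a screen and not that between screens. At the gene level limma called 3 of the 20 members between replicates at an adjusted p under 0.05, where 10.8% of all genes were called. CDK10 was lower in replicate 2 by a log2 value of -0.48 (standard error 0.08, adjusted p = 0.000504 from limma), CDK6 by -0.25 (standard error 0.08, adjusted p = 0.0430 from limma), and CDK5 was higher by 0.32 (standard error 0.07, adjusted p = 0.00926 from limma).

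Per gRNA, 4 of the 80 passed between replicates, where 2.34% of all gRNAs did. CDK6_4 had 247 and 108 normalized reads in IMR32 alone, 211 and 90 in coculture, and 203 and 76 with nivolumab. The replicate libraries did not overlap, with a log2 difference of -1.27 (standard error 0.10, adjusted p = 0.00810 from limma). The other 3 gRNAs of CDK6 differed less, and CDK6_3 overlapped. CDK12_4 was higher in replicate 2 by 0.67 and CDK4_3 by 0.54, and CDK10_3 was lower by -0.56. Between replicates, the levels of the 80 gRNAs correlated less well (Pearson r 0.916 to 0.946) than between conditions of the same replicate (0.957 to 0.969), as a description of gRNAs that share targets.

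Partners and regulators of the kinases were taken from a list of 43 genes, all measured, which comprised cyclins, inhibitors, activating phosphatases, inhibitory kinases and subunits of the kinase complexes. In IMR32 alone 4 of the 43 were low against olfactory receptors, where 5.21% of all genes were. CCND1, a D-type cyclin and partner of CDK4 and CDK6, scored -1.63 and -1.87, lower than either kinase. CCNA2, a cyclin of CDK2 and CDK1, scored -1.37 and -1.44. HEXIM1, which holds P-TEFb inactive, scored -1.23 and -1.52, and CDK11B scored -1.10 and -1.38. CDK11B has a near-identical neighbour, CDK11A, so its gRNAs may cut both and the value is uncertain.

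Levels of the A, B, E and T type cyclins, partners of the 3 low kinases, were looked up after the values had been seen, and of these CCNA2 alone was low. Among the partners of CDK1, CCNB1 scored -1.03 and -1.05 and was below the limit in replicate 1 only, while CCNB2 scored -0.23 and -0.27 and CCNB3 scored 0.34 and 0.39. CCNE1 and CCNE2, the E-type cyclins of CDK2, scored -0.09 and -0.29 and -0.53 and -0.43. CCNA1, the other A-type cyclin, scored 0.22 and 0.37. CCNT1 and CCNT2, the cyclins of CDK9, scored -0.36 and -0.30 and -0.14 and -0.31. All of these but CCNA2 scored above CDK1, CDK2 and CDK9 in both libraries.

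In limma 0 of the 43 passed in any of the 3 comparisons, and with nivolumab against coculture 1, CCNK, had an unadjusted p under 0.05, where 4.51% of all genes did. CCNK encodes the cyclin of CDK12 and CDK13, and its median log2 ratio was 0.14 in donor 1 and 0.20 in donor 2, within the cut-offs. With lymphocytes against IMR32 alone 1 had such a p (MED13, a subunit of the Mediator kinase module), where 4.97% of all genes did. With nivolumab against IMR32 alone there were 2 (CDK11B and CCNC, the cyclin of the Mediator kinases), where 5.17% of all genes were. In that comparison the median log2 ratios in donors 1 and 2 were only 0.04 and 0.00089 for CDK11B. For CCNC they were -0.18 in each donor. No gene of the list was past the same cut-off in both donors with nivolumab against coculture. CCND1 was below in donor 1 (-0.37) and above in donor 2 (0.26), and CCNE1, a cyclin of CDK2, was above in donor 1 (0.27) and below in donor 2 (-0.31).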

How the data were processed

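gRNA abundance was measured by sequencing in 6 libraries of IMR32 cells, 3 conditions with replicate numbers 1 and 2. The authors deposited the values as signal, that is normalized reads per gRNA with an equal total in every library. MAGeCK is named in the submitters' processing notes, without a version, and how reads were normalized is not given in the sources used here. Read depth came from the step between values.

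Gene scores were the median over gRNAs of log2(normalized reads + 1). They were fitted with limma 3.58.1 in R 4.3.3, with condition and replicate number as terms over all 6 libraries and Benjamini-Hochberg adjustment over all 19364 genes, and likewise over all 77441 gRNAs. Per donor, the score was the median log2 ratio over gRNAs, with cut-offs at mean plus or minus 2 SD of all genes. The study's methods used only the lower limit, on MAGeCK scores after mitochondrial and ribosomal genes had been left out. Low level was read against the 2.5th percentile of olfactory receptor genes. The replicate number marks the screen, and in libraries with lymphocytes also the donor. It was a block because the study's methods score each donor on its own. Differences between replicates correlated at 0.394 to 0.402 across conditions over all gRNAs. Data simulated for 19364 genes at a noise SD of 0.15 gave recovery of 80% and 90% for log2 changes of -0.5 and 0.5. For -1 and 1 it was 100%, with 50 genes at each size. All these genes were changed in the same simulated data, with the same noise SD for every gRNA. Since the adjustment depends on how many genes change, the rates do not give the chance of finding a lone changed gene. Nor do they give it for a gene whose gRNAs or donors differ, as those of CDK5R1 did. Positions are from GENCODE 44 on GRCh38.

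Genes given with every gRNA were those low in IMR32 alone, CDK5 and its activators, and those past a cut-off with nivolumab against coculture. Partners were named where low, or past a cut-off in both donors, and the other cyclins and the partners at an unadjusted p under 0.05 were named after their values were seen. The members and lists were chosen with earlier results of these data known. Alternatives were the pseudocount, the mean over gRNAs, a filter on low gRNAs, olfactory scaling, other limits, no block, and each library left out. No comparison column of the study was used.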

Additional observations from a re-analysis of the deposited data

How the results depend on the processing

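No member passed an adjusted p of 0.05 in limma under any setting run, in any of the 3 comparisons of conditions. Over all genes, the counts called moved from 0 to 1 (lymphocytes against IMR32 alone) and 2 (nivolumab against IMR32 alone) with the mean over gRNAs in place of the median. Leaving out 1 library at a time gave 1 to 9 genes called with nivolumab against coculture, 0 to 7 with lymphocytes against IMR32 alone and 0 to 8 with nivolumab against IMR32 alone, in fits where a lone library is assumed to vary like the others. Without the replicate block 0 genes were called in each comparison, as with it, and those at an unadjusted p under 0.05 fell in number from 874, 963 and 1001 to 215, 247 and 261. The cause of these shifts was not tested. The planned count model on recovered reads was not run, since 4 of the 6 libraries had too few gRNAs with low values for the step check set for it.

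Of the 20 genes, 3 were low against olfactory receptors, 6 with the 5th percentile as the limit (CDK3, CDK4 and CDK7 added) and 2 with the 1st (CDK2 lost). Over all genes the low ones numbered 1008, 2599 and 334 at these limits, and 1516 with the mean over gRNAs. Leaving out a library of IMR32 alone gave 3 to 4, with CDK3 added without replicate 2. The coculture libraries gave 4, again with CDK3.

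No member was below the cut-off in both donors under any setting run. Over all genes, those below in both numbered 26, 16 and 17 in the order above, 1, 1 and 2 at 3 SD, and 29 for lymphocytes against IMR32 alone with the mean over gRNAs.

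The change of CDK5R1 with nivolumab against coculture, -0.30, kept its sign in 11 of 11 settings. These settings use the same libraries or part of them, so they are no independent support. Its size depends on which donor's libraries are left out, from -0.14 to -0.47. For the 9 genes given in full, 38 of 297 refitted changes had the opposite sign, 3 of 11 for CDK9 with lymphocytes against IMR32 alone. Depth gives a counting error of up to 0.296 for CDK9_4 and a median of 0.079, while olfactory receptor gRNAs had an SD of 0.19 to 0.24 in the same ratios, so counting error alone understates the noise of a single gRNA.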
